A study of Homo sapiens with 6 samples.

Results

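The miR-193 and miR-365 miRNAs are made from 2 paralogous clusters, one on chromosome 16 with the hairpins MIR193B and MIR365A and one on chromosome 17 with MIR193A and MIR365B. The members described here are hsa-miR-193a-5p, hsa-miR-193b-5p, hsa-miR-193b-3p and hsa-miR-365a-3p, chosen by name, 4 of the 832 miRNAs in the deposited table. hsa-miR-193a-3p, also named by the rule, was not analysed here. Small RNA libraries were compared between extracellular vesicles (EVs) of wild-type MDA-MB-231 cells (231 EV, n = 3) and EVs of the same cells with ACO1 knockdown (231/ACO1 KD EV, n = 3). MDA-MB-231 is a cell line of triple-negative breast cancer, a human tumour without hormone receptors or HER2 amplification. 231 EV is called the control and 231/ACO1 KD EV the knockdown. ACO1 is an iron-responsive RNA binding protein, and the study asked whether it assists the secretion of a miRNA, miR-33a, into EVs. The EVs of both groups were pelleted by ultracentrifugation from the medium of nearly confluent cells grown in EV-free conditions. How the knockdown was made, and whether its cells were 1 clone, is not given in the sources used here. The labels number the libraries of each group without saying that they came from separate cultures, so p-values measure the spread between these libraries, which may be technical.

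A miRNA hairpin is cut by Drosha and Dicer into a duplex of a 5p and a 3p arm, and usually 1 of the arms is kept in Argonaute while the other is degraded. The kept arm binds target mRNAs mainly through its seed, the bases after the first one at its 5′ end. Members of this group are known for a role in brown fat differentiation, where the cluster of miR-193b and miR-365 is induced. In breast cancer cells, miR-193b-3p is known as a repressor of urokinase plasminogen activator and of invasion. In colon cancer cells, miR-193a has been described as sorted into exosomes with the major vault protein.

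The mature sequences are shown because they decide which of these miRNAs can be told apart by sequence and which share targets. They are from RefSeq (GRCh38.p14), 5′ to 3′, with the seed (bases 2 to 8) in capitals:
hsa-miR-193a-5p: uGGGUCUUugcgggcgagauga
hsa-miR-193b-5p: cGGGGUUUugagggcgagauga
hsa-miR-193a-3p: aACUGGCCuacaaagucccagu
hsa-miR-193b-3p: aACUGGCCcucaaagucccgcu
hsa-miR-365a-3p: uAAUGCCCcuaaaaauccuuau
hsa-miR-365b-3p: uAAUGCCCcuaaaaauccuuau
hsa-miR-365a-5p: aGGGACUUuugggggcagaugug
hsa-miR-365b-5p: aGGGACUUucaggggcagcugu

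The 3p arms of miR-193a and miR-193b share the seed ACUGGCC and differ at 4 of 22 positions, counted from 1 at the 5′ end with the miR-193a base first (U9C, A10U, A20G and G21C). The 5p arms also differ at 4 of 22 positions (U1C, U5G, C6U and C11A), but U5G and C6U fall within the seed, so miR-193a-5p and miR-193b-5p do not share it. hsa-miR-365a-3p and hsa-miR-365b-3p are the same sequence, so a read of it cannot be assigned to chromosome 16 or 17. Outside these 8 hairpin products, no mature miRNA in the RefSeq table has any of these seeds. CAUUG, the sequence that the study assigned to ACO1 binding in miR-33a, is in 0 of the 8 products and in 21 of the 715 miRNAs of the table whose mature sequence was matched (2.94%). GGAG, a motif known from the exosome sorting protein hnRNPA2B1, is likewise in 0 of the 8 products and in 84 of the 715 (11.7%). The motifs were searched on the miRNA strand only.

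The hairpins are shown to place the arms, which are in capitals. MIR193B lies at chr16:14303967-14304049 and MIR365A at chr16:14309285-14309371, with 5235 bases between them. MIR193A lies at chr17:31559996-31560083 and MIR365B at chr17:31575411-31575521, with 15327 bases between them. All 4 are on the plus strand of GRCh38, and GENCODE release 29 gives the same start and end for each:
MIR193B: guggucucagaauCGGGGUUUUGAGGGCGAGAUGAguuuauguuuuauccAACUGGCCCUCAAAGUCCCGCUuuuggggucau
MIR365A: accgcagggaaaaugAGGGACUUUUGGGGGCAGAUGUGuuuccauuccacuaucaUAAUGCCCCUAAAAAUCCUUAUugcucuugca
MIR193A: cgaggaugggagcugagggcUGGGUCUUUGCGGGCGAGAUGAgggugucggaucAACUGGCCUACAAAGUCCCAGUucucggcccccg
MIR365B: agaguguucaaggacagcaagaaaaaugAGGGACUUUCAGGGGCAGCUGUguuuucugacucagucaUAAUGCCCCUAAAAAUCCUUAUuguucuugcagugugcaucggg

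On chromosome 16, both hairpins lie in introns of the long non-coding RNA gene MIR193BHG (14301389 to 14331067 in GENCODE). On chromosome 17, MIR365B ends within exon 3 of the long non-coding RNA gene that RefSeq calls MIR365BHG, an exon from 31575511 to 31575659, and the rest of the hairpin is intronic. No other annotated gene overlaps MIR193A.

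The authors deposited read counts and TPM values, which here are each count's share of the library's total, rescaled to a common sum, without a length term. The total count per library was 224948 to 230562 for the control and 67873 to 175924 for the knockdown, whose replicate 2 was the shallowest. A count of 0 allows up to 3 counts, or 13 to 13.3 TPM for the control and 17.1 to 44.2 TPM for the knockdown. Scaling factors by edgeR's TMM method were 0.840 to 0.915 for the control libraries and 1.09 to 1.20 for the others. The median log2 fold change of all miRNAs tested was -0.03 with TMM and 0.32 with library totals. The markers of a mesenchymal-like breast cancer line were abundant (5 of 5 listed, summed level 406583 to 427629 TPM in control and 248626 to 312836 TPM in knockdown libraries). Those of luminal epithelium were low (6 of 6, 858 to 985 and 619 to 992 TPM). Markers of leukocytes, platelets and endothelium were found in every library (5 of 5, 15231 to 17769 and 25337 to 29938 TPM), and so were those of red cells (3 of 3, 2009 to 2178 and 1256 to 1634 TPM) and of liver (hsa-miR-122-5p, 1094 to 1324 and 985 to 1887 TPM). Markers of adipose tissue and muscle summed to 26.7 to 66.7 and 44.5 to 133 TPM (3 of 3 listed, hsa-miR-206 among them with a count in fewer than 3 libraries). By edgeR's quasi-likelihood test, 4 of the 5 mesenchymal-line markers were lower in the knockdown at an adjusted p under 0.05, and 0 were higher. So were 2 of the 3 red cell and 1 of the 6 luminal markers. Of the 5 markers of leukocytes, platelets and endothelium, 3 were higher and 0 lower. Of all miRNAs tested, 6% were lower and 2.51% higher. The share called in either direction was 18.6% at a mean count of at least 10 and 0.687% below it. The part of other cells' RNA in the values below was not tested.

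hsa-miR-365a-3p, the kept arm of the miR-365 hairpins, was the most abundant of the group and held 172 of the 228 reads of these hairpins (75.4%, 95% Wilson interval 69.5% to 80.6%). This share counts its reads once, because the table lists the same counts for hsa-miR-365b-3p in all 6 libraries. hsa-miR-193b-5p had 24 reads over the 6 libraries, hsa-miR-193a-5p had 16, hsa-miR-193b-3p had 11 and hsa-miR-365a-5p, the other arm of MIR365A, had 5. By mean TPM over the 6 libraries these were 146, 24.1, 14.7, 12.7 and 7.43 TPM, at ranks 170, 309, 353, 367 and 424 of 832. The 4 members all have 22 bases. How evenly different sequences entered the libraries was not tested, so levels and shares of different miRNAs, here and below, compare as reads only. hsa-miR-365a-3p exceeded the 3 miR-193 members in every library, but in knockdown replicate 2 by only 3 reads to 2 reads of each miR-193b arm. The Wilson intervals of the 3 miR-193 members overlapped each other in every library other than knockdown replicate 1, where that of hsa-miR-193b-5p (23 to 89.7 TPM) lay above that of hsa-miR-193a-5p (0 to 21.8 TPM). Wilson intervals here and below cover counting error only.

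The control libraries, in the order of replicates 1, 2 and 3, held 51, 23 and 40 reads of hsa-miR-365a-3p, and the knockdown libraries 33, 3 and 22. As TPM these were 227, 99.8 and 178 against 188, 44.2 and 140. The groups overlapped, and the lowest value of either was that of the shallowest library, 231/ACO1 KD EV replicate 2, with a 95% Wilson interval of 15 to 130 TPM. The control mean was 168 ± 64 TPM (SD, n = 3) and the knockdown mean 124 ± 73 TPM (SD, n = 3). Using edgeR's quasi-likelihood test on TMM-scaled counts, the log2 fold change was -0.63 (standard error 0.32, 95% interval -1.26 to 0.0024, Benjamini-Hochberg adjusted p = 0.262). With library totals it was -0.29. It was thus not distinguishable from the spread between libraries, and the interval allows folds from 0.418 to about no change. This interval rests on 1 quasi-dispersion shared by all miRNAs, so it is too narrow if hsa-miR-365a-3p varies more than others. It does not exclude an increase. Without 231/ACO1 KD EV replicate 2 the log2 fold change was -0.34, without 231/ACO1 KD EV replicate 1 it was -0.99, and without 231 EV replicates 1 and 2 in turn it was -0.38 and -0.90. In EVs, fewer vesicles that carry a miRNA and less of it per vesicle cannot be told apart.

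The miR-193b arms pointed the other way, at counts close to the limit. hsa-miR-193b-5p, usually the degraded arm, was counted 3, 4 and 3 times in the control libraries against 8, 2 and 4 times in the knockdown libraries, or 13.3, 17.3 and 13.3 TPM against 45.5, 29.5 and 25.4 TPM. All 3 knockdown libraries were above all 3 control libraries, also after TMM scaling. Among all miRNAs tested, 22.6% had deposited TPM values that did not overlap with the knockdown higher and 5.8% with it lower, and 11.6% did not overlap with it higher after TMM scaling. Its log2 fold change was 0.86 (standard error 0.82, 95% interval -0.75 to 2.47, edgeR quasi-likelihood adjusted p = 0.673). An exact permutation test of log2(TPM + 1), two-sided, gave p = 0.1, the smallest that 3 libraries against 3 allow. For the other members the same permutation test gave p = 0.6 (hsa-miR-365a-3p), 0.3 (hsa-miR-193b-3p) and 0.8 (hsa-miR-193a-5p).

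For hsa-miR-193b-3p, the arm with the seed ACUGGCC, the control libraries held 2, 0 and 2 reads and the knockdown libraries 4, 2 and 1. The TPM values were 8.89, 0 and 8.89 against 22.7, 29.5 and 6.36, so the groups overlapped through replicate 3 of the knockdown. No control library exceeded 3 counts. The fitted log2 fold change was 1.17 with an interval from -0.97 to 3.30 (edgeR quasi-likelihood adjusted p = 0.658), which leaves folds between 0.51 and 9.87 possible. A difference was not detectable at this depth.

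Reads of hsa-miR-193a-5p, the arm with the seed GGGUCUU, numbered 2, 6 and 3 among control and 0, 1 and 4 among knockdown libraries. As TPM these were 8.89, 26 and 13.3 against 0, 14.7 and 25.4, and the groups overlapped over most of their range. The log2 fold change was -0.65 (standard error 0.99, 95% interval -2.60 to 1.29, edgeR quasi-likelihood adjusted p = 0.799), and it turned to 0.094 without 231/ACO1 KD EV replicate 1, the library with a count of 0. hsa-miR-365a-5p, at 0, 1 and 1 control and 0, 2 and 1 knockdown reads, stayed under the limit of 3 counts throughout, and no fold is given for it.

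**Figure D1:**
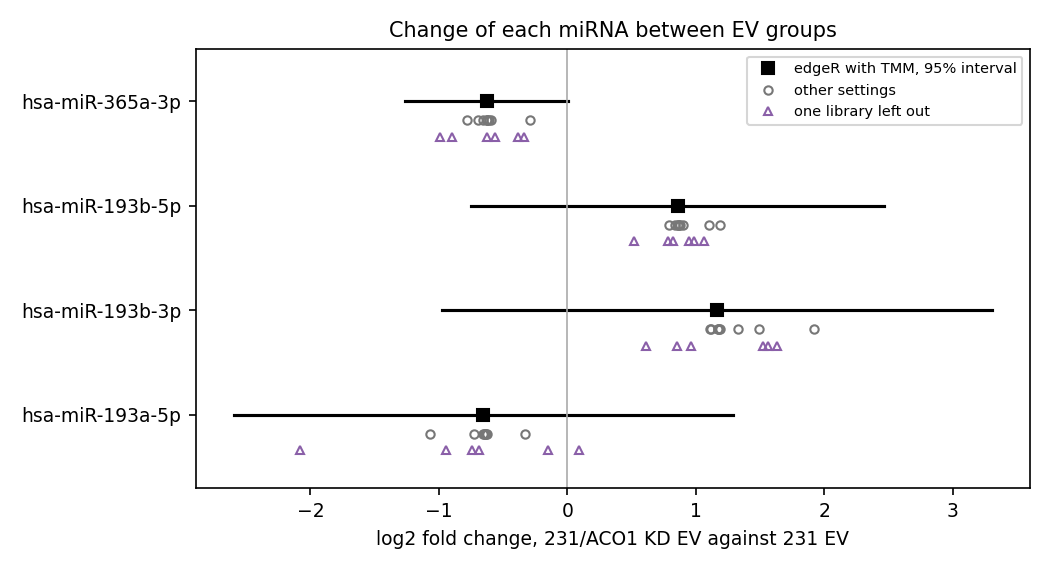
Log2 fold change of the 4 members, 231/ACO1 KD EV against 231 EV, from edgeR with TMM (black squares with 95% intervals), under the other settings (grey circles) and with a library left out (purple triangles). Every interval includes 0, and hsa-miR-193a-5p lies on either side of 0 when a library is left out.

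Of the 4 members, 0 passed an adjusted p of 0.05 by edgeR's quasi-likelihood test, where 8.51% of the 517 miRNAs tested did (6% lower and 2.51% higher in the knockdown), and 0 had an unadjusted p under 0.05 by edgeR, by DESeq2 or by limma, where 18.8% of all did by edgeR. All 4 had a count above 0 in at least 3 libraries and were tested. Of the 291 miRNAs tested with a mean count under 10, as the 3 miR-193 members have (1.83 to 4), 2 were called (0.687%). Of the 226 with a mean count of at least 10, as hsa-miR-365a-3p has (28.7), 42 were called (18.6%).

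**Figure D2:**
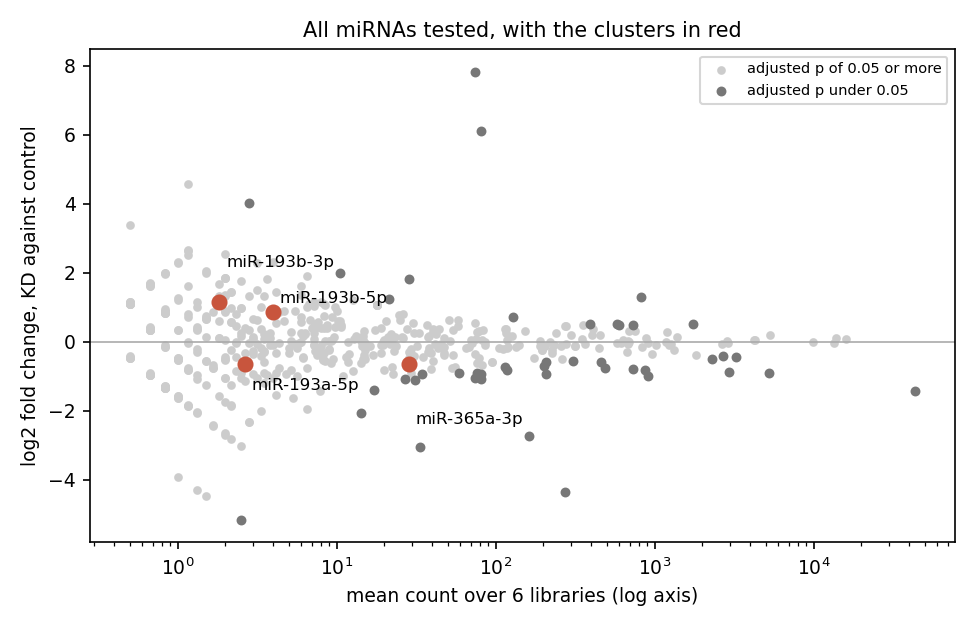
Log2 fold change of the 517 miRNAs tested, 231/ACO1 KD EV against 231 EV, against their mean count over the 6 libraries (log axis), with those past an adjusted p of 0.05 in dark grey and the 4 members in red. The miR-193 members lie at mean counts of 1.83 to 4, where few miRNAs were called, and hsa-miR-365a-3p at 28.7.

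The use of the arms was compared within libraries, where no scaling enters. For miR-193b, the 5p arm made up 24 of the 35 reads of both arms (68.6%, 95% Wilson interval 52% to 81.4%). By group it made up 10 of 14 control reads (71.4%, 45.4% to 88.3%) and 14 of 21 knockdown reads (66.7%, 45.4% to 82.8%). In no library did the 3p arm exceed the 5p arm, and they were equal at 2 counts each in 231/ACO1 KD EV replicate 2. The log2 ratio of 5p over 3p, with 0.5 added to each count, was 1.38 ± 1.55 (SD, n = 3) for the control and 0.83 ± 0.80 (SD, n = 3) for the knockdown, a difference of -0.55 (exact permutation test, two-sided, p = 0.7, smallest possible 0.1). It turned to 0.35 without 231 EV replicate 2, the library without a 3p read.

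Among the 164 hairpins of the table with both arms listed and at least 10 counts over both, the rarer arm made up a median of 4.9% of the reads (quartiles 0.865% and 15.2%). The rarer arm of miR-193b made up 31.4%, and 11 of the 164 hairpins had a larger share. Among the 25 hairpins with 18 to 70 counts over both arms the median was 13.6%, and 3 had a larger share than miR-193b. miR-365a stood on the other side of the median, with 5 of 177 reads on its 5p arm (2.82%, 95% Wilson interval 1.21% to 6.44%). Since the 3p reads may come from MIR365B as well, the 5p share of MIR365A itself may be higher. Of those 5 reads, 2 were in 231/ACO1 KD EV replicate 2, beside 3 reads of the 3p arm.

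Between cluster partners, hsa-miR-365a-3p outnumbered hsa-miR-193b-3p by 51 to 2, 23 to 0 and 40 to 2 reads in the control and by 33 to 4, 3 to 2 and 22 to 1 reads in the knockdown. The log2 ratio was 4.65 ± 0.81 (SD, n = 3) for the control and 2.43 ± 1.76 (SD, n = 3) for the knockdown, a difference of -2.22. With 0.5 added to each count, the lowest control library, replicate 3 (4.02), lay just above the highest knockdown library, replicate 3 (3.91). In the counts themselves the order of these libraries is the other way (40 to 2 against 22 to 1), so the groups overlapped without the added 0.5. The exact permutation test, two-sided, gave p = 0.1, which is the smallest possible with 3 libraries against 3, and p = 0.2 with 0.1 added in place of 0.5. Leaving out a library in turn gave differences from -2.95 to -1.24, the latter without 231/ACO1 KD EV replicate 2 and the former without 231/ACO1 KD EV replicate 3.

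Against the chromosome 17 partner hsa-miR-193a-5p, the log2 ratio of hsa-miR-365a-3p was 3.25 ± 1.28 (SD, n = 3) for the control and 3.20 ± 2.54 (SD, n = 3) for the knockdown. The difference of -0.047 was far within the spread (exact permutation test, two-sided, p = 1). The paralogue ratio of hsa-miR-193a-5p over hsa-miR-193b-5p was 0.015 ± 0.51 (SD, n = 3) and -1.61 ± 2.18 (SD, n = 3), a difference of -1.62 (exact permutation test, two-sided, p = 0.3), and rested mostly on 231/ACO1 KD EV replicate 1 with 0 reads of hsa-miR-193a-5p and 8 of hsa-miR-193b-5p. Without that library the difference was -0.38. Adjusted by Benjamini-Hochberg over the 4 ratios tested, arm use included, these p-values were 0.4 at the lowest and 1 at the highest.

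Summed over hsa-miR-193a-5p and both miR-193b arms, there were 7, 10 and 8 control and 12, 5 and 9 knockdown reads of miR-193. Their summed TPM was 31.1, 43.4 and 35.6 against 68.2, 73.7 and 57.2, and after TMM scaling the ranges were 34 to 48.3 and 52.4 to 61.5 CPM. The groups did not overlap on either scale. Of single miRNAs tested, 22.6% did not overlap with the knockdown higher on TPM and 11.6% after TMM scaling. hsa-miR-193b-5p, which is part of the sum, was among these on both scales. hsa-miR-365a-3p exceeded this sum in every library other than 231/ACO1 KD EV replicate 2, where it had 3 reads against 5. The sum was formed after the values were seen and was not tested.

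The pattern of hsa-miR-365a-3p over the 6 libraries was followed most closely, after hsa-miR-365b-3p with the same counts, by hsa-let-7g-5p (Pearson's r = 0.975 of log2 TMM-scaled CPM) and hsa-miR-379-5p (r = 0.937), of 225 miRNAs with a mean count of at least 10. The 6 points share the library, its depth and its scaling, so r is a description only. The counts of hsa-miR-379-5p were 31, 27 and 26 for the control and 27, 4 and 23 for the knockdown, with the lowest value in the same shallow library. The level of hsa-let-7g-5p spanned a narrower range, 4978 to 6560 TPM over all libraries. Its deposited TPM was 5730, 5075 and 4978 for the control and 6560, 6129 and 6159 for the knockdown. Before TMM scaling it was thus higher in every knockdown library, unlike hsa-miR-365a-3p. The likeness was computed on the TMM scale only.

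Other miRNAs of the processes for which the clusters are known were examined as lists. Of 17 further miRNAs known from brown fat, 17 were tested, and 1 was called lower and 0 higher, against 6% lower and 2.51% higher of all miRNAs tested. The median log2 fold change of the list was -0.026, and that of all miRNAs tested -0.032. The called one was hsa-miR-378a-3p (176 ± 20.5 against 108 ± 69.3 TPM, SD, n = 3, edgeR quasi-likelihood adjusted p = 0.0215). The most abundant, hsa-miR-93-5p, had a log2 fold change of -0.026 (standard error 0.13). Of 10 miRNAs known as suppressors of breast cancer metastasis, 9 were tested, and 3 were called lower and 1 higher, with a median of -0.54, beside the same shares over all miRNAs tested. The lower ones were hsa-miR-146a-5p, hsa-miR-146b-5p and hsa-miR-205-5p, at log2 fold changes of -2.72, -0.73 and -0.93, and the higher one was hsa-miR-126-3p at 0.52, which is also a marker of endothelium and platelets. The shares over all miRNAs tested depend on depth, as 18.6% were called at a mean count of at least 10 and 0.687% below it. The lists were not matched for depth.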

How the data were processed

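Per the labels and the study's methods, small RNA libraries were made with the NEBNext kit and read as single ends. Adapter and quality trimming, a length filter, removal of Rfam matches, Bowtie2 on hg38, a miRBase search and a prediction step were run by the authors. They deposited raw read counts per miRNA and TPM values. The deposited TPM equals the count divided by the library's total and rescaled, to within 4.99e-05. The labels' processing notes also name StringTie. No molecular identifiers are reported, so counts are reads.

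A miRNA needed a nonzero count in 3 or more libraries, which left 517 of 832, tested with edgeR 4.0.16 in R 4.3.3 (TMM, quasi-likelihood, no covariates, Benjamini-Hochberg over all tested). Its common dispersion was 0.0433, and all miRNAs shared 1 quasi-dispersion. A miRNA that varies more than others thus gets too small a p and too narrow an interval. Standard errors were derived from the F statistic. Replicates of a group differed beyond counting noise in chi-square tests. Ratios were tested by exact permutation over libraries, and so was log2(TPM + 1) of the members, which was not planned. DESeq2 1.42.0, limma 3.58.1 on log2(TPM + 1), library totals, scaling without the 10 highest miRNAs, other filters, the robust option, a replicate block, each library left out and, added after seeing the data, repeated rows counted once were alternatives. Repeated rows were those with the same counts in every library and at least 30 counts in sum, of which 5 were dropped. The scripts were tested on simulated data with the common dispersion for every miRNA. At mean counts under 10, a 4-fold change was called in 39.1% of cases by edgeR, 9.2% by DESeq2 and 27.6% by limma. At mean counts of at least 10, edgeR called 99%. Sequences are from RefSeq (GRCh38.p14) and annotation from GENCODE 29, and 715 of 782 miRBase names were matched to a mature sequence.

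Named miRNAs are the members, other products of their hairpins, those sharing a seed and the 3 most alike in pattern to the most abundant member. The called and most abundant miRNAs of the brown fat and metastasis lists are named too, while the markers are mostly given as sums and counts. Members and lists were chosen with earlier results of these data known. The share of miR-365a arms, the hairpins of like depth and the summed miR-193 reads were added after the values were seen.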

Additional observations from a re-analysis of the deposited data

How the results depend on the processing

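No member passed an adjusted p of 0.05 in any of the 15 alternative settings, with DESeq2 (which gave no adjusted p for the 3 miR-193 members), limma, robust edgeR, other filters and scalings, repeated rows counted once and each library left out. hsa-miR-365a-3p stayed below 0 (-0.99 to -0.29) and both miR-193b arms above 0 (0.516 to 1.19 for 5p, 0.614 to 1.92 for 3p) in all 15. The unadjusted p of hsa-miR-365a-3p, 0.0509 in edgeR with TMM, was 0.0103 to 0.0483 in 5 of them (231/ACO1 KD EV replicate 1 left out, 231 EV replicate 2 left out, the replicate block, no filter, and TMM without the 10 highest miRNAs). With DESeq2 the unadjusted p was 0.153, with limma 0.118 and with edgeR on library totals 0.365. hsa-miR-193a-5p went from -2.08 to 0.0944. Over all miRNAs, 44 were called (31 lower, 13 higher), against 71 (13, 58) with library totals, 75 (16, 59) with limma and 19 to 65 with a library left out. The arm ratio difference of miR-193b went from -0.994 to 0.349 with a library left out. That of hsa-miR-365a-3p over hsa-miR-193a-5p was 0.692 with a pseudocount of 0.1 and -1.48 to 0.944 with a library left out. The other ratio differences kept their sign, but with a pseudocount of 0.1 the groups overlapped in hsa-miR-365a-3p over hsa-miR-193b-3p (exact permutation p = 0.2, against 0.1 with 0.5). The cause of these changes was not tested. The labels do not say whether equal replicate numbers in both groups mark a pair. Between libraries of equal number, deviations from the group means had Pearson's r of -0.138, 0.0439 and 0.229 over 226 miRNAs. These values cannot decide it, because libraries of unlike number were not compared. With the replicate block the log2 fold changes were -0.779, 0.838, 1.12 and -0.639 for hsa-miR-365a-3p, hsa-miR-193b-5p, hsa-miR-193b-3p and hsa-miR-193a-5p, 44 miRNAs were called, and the ratio of hsa-miR-365a-3p over hsa-miR-193b-3p had an exact sign-flip p of 0.25, the smallest that 3 pairs allow. The planned ratios with hsa-miR-193a-3p were not computed, as it was not analysed here. Counts of 0 to 8 per library limit every statement on the miR-193 members.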

Other observations

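hsa-miR-365a-3p and hsa-miR-365b-3p are 1 of the sets of names in the table that share a mature sequence in RefSeq. The names hsa-miR-3689a-5p, hsa-miR-3689b-5p and hsa-miR-3689e also share one and were listed with the same counts, summing to 12 each over the 6 libraries. hsa-miR-199a-3p and hsa-miR-199b-3p share one as well but were listed with 1653 and 1651 counts. The library totals are sums over all names. With repeated rows of at least 30 counts counted once, which left the hsa-miR-3689 names as listed, the log2 fold change of hsa-miR-365a-3p was -0.62.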
